A study of Macaca fascicularis with 64 samples.

Results

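The 9 genes described here are the amyloid precursor protein gene APP, its relatives APLP1 and APLP2, the sorting receptor gene SORL1, the β-secretase genes BACE1 and BACE2, and the γ-secretase genes PSEN2, APH1A and NCSTN. They were chosen by name from 21041 macaque genes, with earlier results of the same cells known, and were followed across α-, β-, δ- and PP-cells of the islet and between young and old animals. The study collected single islet cells from 16 non-diabetic cynomolgus monkeys (Macaca fascicularis). The 8 young monkeys were 4 to 6 years old and the 8 old monkeys were 18 to 21 years old, with 4 females and 4 males at each age. Islets came from the tail of the pancreas, were picked by hand after collagenase digestion and were dissociated into single cells, and living cells were picked one by one after a dye exclusion sort. Messenger RNA was read from tagged transcript ends with unique molecular identifiers (UMIs), which count molecules and not PCR copies. The labels name no transgene or treatment. Each monkey was collected on a day of its own, so that monkey and day cannot be told apart.

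APP is a membrane protein that is cut in steps. β-Secretase or an α-secretase sheds its outer part, and the γ-secretase complex then cuts the remaining stub within the membrane, which after β-secretase cutting releases amyloid-β, the peptide that aggregates in the brain in Alzheimer's disease. SORL1, also called SORLA or LR11, binds APP inside the cell and steers it between the Golgi and endosomes together with the retromer complex. The islet has an amyloid of its own, made from islet amyloid polypeptide, a peptide that β-cells secrete together with insulin.

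Of 6141 picked cells, 5908 were retained with more than 800 genes and more than 10000 UMIs, those of spike-in RNAs included. A cell was typed by the highest of its 4 hormone transcripts (GCG, INS, SST and PPY), which gave 4503 α-cells and 1219 β-cells from 16 monkeys, 112 δ-cells from 15 monkeys and 74 PP-cells from 11 monkeys. Counts of the cells of a type were summed in each monkey where at least 5 cells were present, which left 16 sums of α-cells, 16 of β-cells, 11 of δ-cells and 6 of PP-cells. Levels are given below as UMIs per 1000000 UMIs of such a sum (CPM), and n counts monkeys. The total per monkey ran from 20719800 to 34053100 UMIs, and the median cell held 64894 UMIs in α-cells, 74425 in β-cells, 43776 in δ-cells and 45772.5 in PP-cells.

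Cells typed by their hormone mostly carried the other markers of that type, with some mixing. IRX2, an α-cell factor, averaged 475 CPM in α-cells and 40.4 in β-cells. The glucose transporter gene SLC2A2 averaged 690 CPM in β-cells and 9.97 in α-cells, and the δ-cell factor HHEX averaged 357 CPM in δ-cells. The exceptions named here were the α-cell marker LOXL4, which was highest in PP-cells, and the PP-cell marker MEIS2, which was highest in δ-cells. INS was still read at 7262 CPM in α-cells and GCG at 22849 CPM in β-cells. The highest hormone exceeded the next by at least 4 times in 93.4% of the α-cells but in 31.5% of the β-cells and 10.8% of the PP-cells. The libraries share cell barcodes by design, with 93 of 96 barcodes used in every one of the 64 libraries.

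SORL1 set the types apart most widely among the 9 genes. In α-cells it lay between 5.08 and 35.5 CPM with a median of 14.6, and in β-cells between 245 and 745 CPM with a median of 394. Each of the 16 monkeys had more SORL1 in its β-cells than in its α-cells, and the ranges did not overlap. The mean was 406 ± 111 CPM (SD, n = 16) in β-cells and 16.3 ± 9.37 CPM in α-cells, a ratio of 24.9. The log2 fold change between the types was 4.76 ± 0.29 (SE) with an adjusted p of 9.71e-20 (edgeR quasi-likelihood test on the sums, with monkey as a block and Benjamini-Hochberg adjustment over 12895 genes, as for each type comparison below). It ran from 4.48 to 4.95 over 25 other settings.

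**Figure D1:**
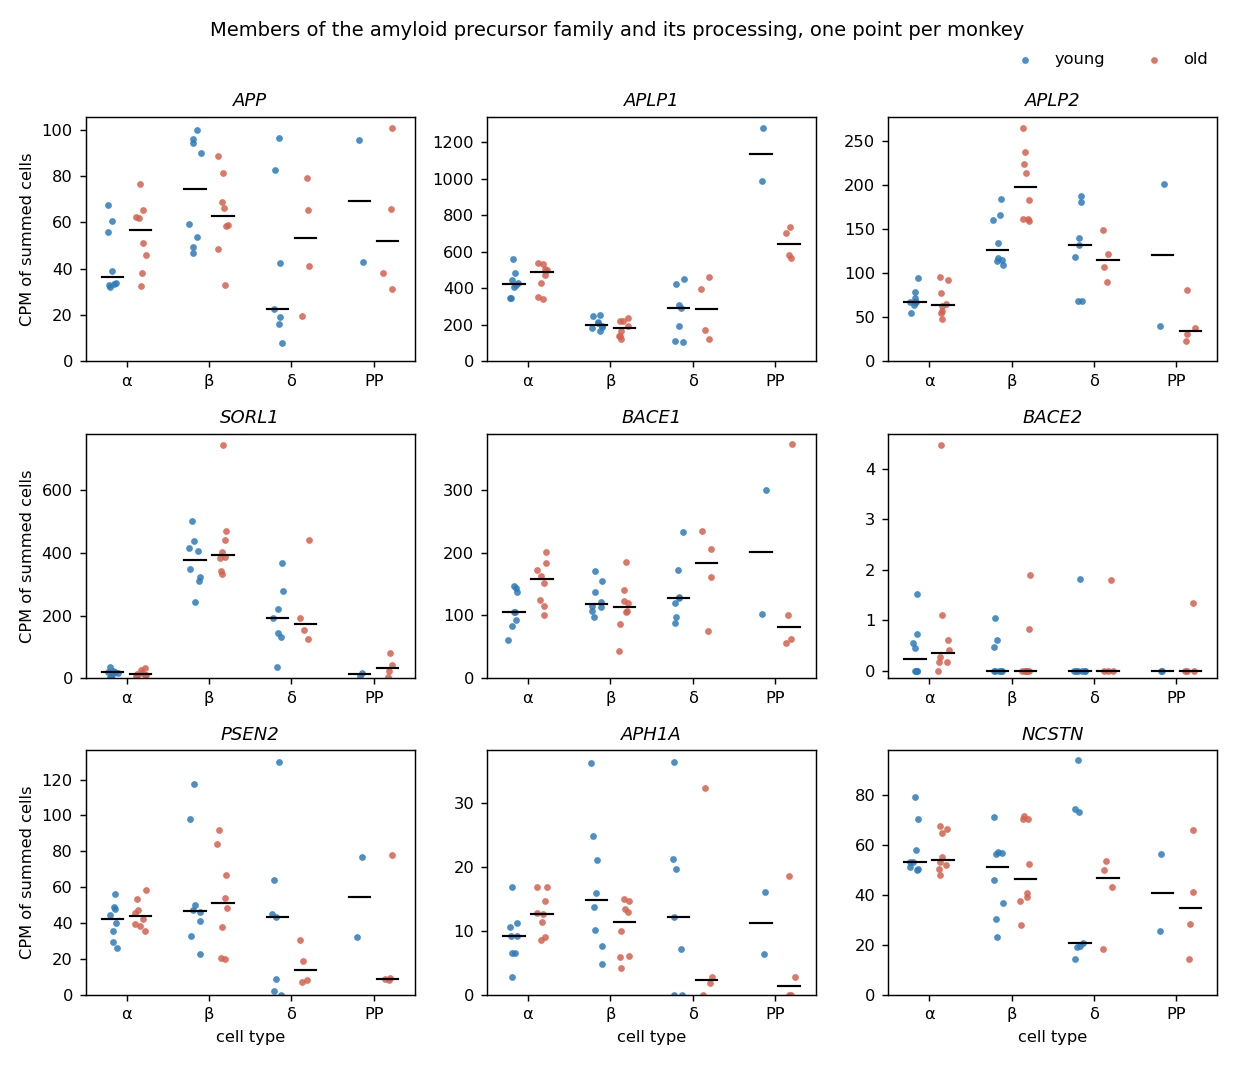
Levels of the 9 genes in α-, β-, δ- and PP-cells, in CPM on a linear axis of its own for each gene; each point is 1 monkey (blue young, red old) and each black line the median of an age group. SORL1 in β-cells lies between 245 and 745 CPM, above the 16 α-cell values.

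In δ-cells, SORL1 had a lowest value of 36.8 CPM, a median of 192 and a highest value of 443. It was above the α-cell value of the same monkey in 11 of 11 monkeys and below the β-cell value in 9 of 11. The log2 fold change of δ- over α-cells was 3.71 ± 0.31 (adjusted p = 6.47e-14) and that of δ- over β-cells was −1.05 ± 0.30 (adjusted p = 0.00946). The second of these had an adjusted p of 0.0549 with DESeq2. The δ-cell mean was 51.2% of the β-cell mean. Among β-cell genes, the δ-cell means of IAPP, SLC2A2, MAFA and INS were 5.98%, 0.977%, 3.66% and 10.9% of theirs. NKX6-1 averaged 40.5 CPM in δ-cells and 211 CPM in β-cells, and PDX1, at a low level, 6.53 and 8.89 CPM.

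In the 6 sums of PP-cells, SORL1 was read at 41.1, 81.4, 4.79 and 22.8 CPM in old female 1, old female 2, old male 2 and old male 4, and at 8.07 and 17 CPM in young male 1 and young male 4. All were below every β-cell value, while they overlapped the α-cell values. SORL1 was lower in PP-cells than in β-cells by a log2 fold change of −3.80 ± 0.46 (adjusted p = 8.93e-09) and lower than in δ-cells by −2.75 ± 0.46 (adjusted p = 3.03e-05). Old female 2 holds 33 of the PP-cells, and without that monkey these values were −4.68 and −3.69. With sums of at least 10 cells, which leave old female 2 alone among the PP-cells, they were −1.97 (adjusted p = 0.139) and −0.83 (adjusted p = 0.65). The difference between PP- and α-cells, 0.96 ± 0.43, had an adjusted p of 0.162. It was 0.083 (adjusted p = 0.939) without old female 2 and 2.81 (adjusted p = 0.0182) with sums of at least 10 cells, and it also passed without the monkey block. In order of their medians the types were β, δ, PP and α, and the fitted difference of the neighbours PP and α depended on old female 2.

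The transcript was spread through the β-cell population. A UMI of SORL1 was found in 95.1% of the β-cells (60 of 1219 cells had none), and after each cell was thinned to 10000 UMIs it was still found in 85.2%. The thinning left out 45 α- or β-cells with fewer UMIs of macaque genes. The median β-cell held 338 CPM, with 66.7 at the 10th percentile and 735 at the 90th. In α-cells the share was 39.6%, or 11.4% after thinning. For comparison, SLC2A2 was found in 25.8% of α-cells (6.43% after thinning), in which that β-cell transporter should be lacking.

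The SORL1 level of α-cells was set beside those of other β-cell transcripts. It came to 4.02% of the β-cell mean, above the values of SLC2A2 (1.45%) and IAPP (1.97%) and below those of MAFA (5.03%) and INS (11.3%). NKX6-1 averaged 54.1 CPM in α-cells and 211 CPM in β-cells, and PDX1 0.205 and 8.89 CPM. The 397 α-cells with 3 or more SORL1 UMIs, 8.82% of the type, held 65.1% of the SORL1 UMIs of α-cells. Their median INS level was 10103 CPM, against 4272 CPM in the 2719 α-cells with no SORL1 UMI, and their median depth was 88795 against 58597 UMIs. The part of mixed cells and of depth in these values was not tested. With only the cells whose highest hormone was at least 4 times the next, mean SORL1 was 12 CPM in α-cells and 413 CPM in β-cells.

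**Figure D2:**
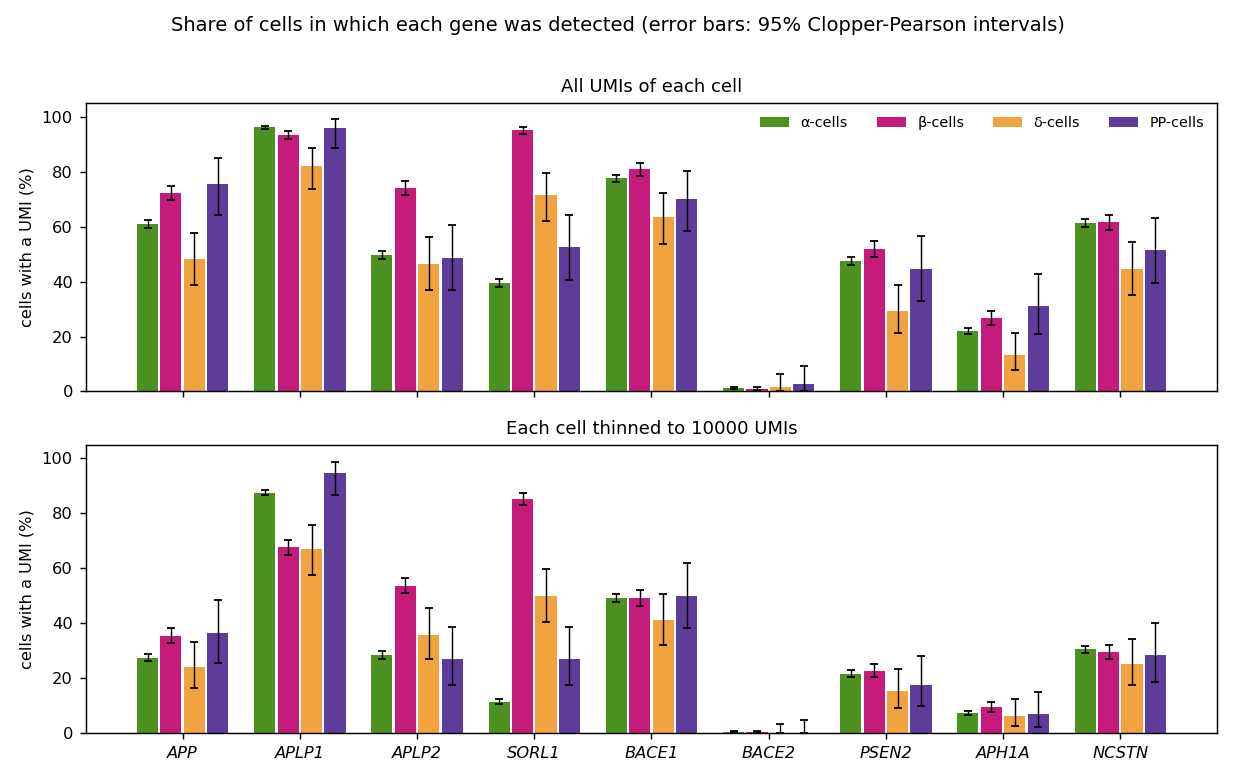
Share of cells with at least 1 UMI of each gene in α-, β-, δ- and PP-cells, in percent, for all UMIs and for cells thinned to 10000 UMIs. Bars span the exact 95% binomial interval. SORL1 stays at 85.2% of β-cells after thinning and drops to 11.4% of α-cells.

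The precursor genes moved in opposite directions between the same types. APLP1, whose product resembles APP in its cleavage but lacks the amyloid-β sequence, was read in α-cells between 343 and 562 CPM with a median of 438. In β-cells it lay between 121 and 253 CPM with a median of 195. The β-cell value was the lower in 16 of 16 monkeys and the ranges did not overlap. APLP1 was lower in β-cells by a log2 fold change of −1.20 ± 0.14 (adjusted p = 1.97e-09).

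PP-cells held the highest APLP1 of the 4 types. The 4 old monkeys had 567, 585, 738 and 706 CPM in PP-cells, and the 2 young males had 987 and 1280. Every one of them was above the highest α-cell value. Its log2 fold change was 0.86 ± 0.21 over α-cells (adjusted p = 0.00629), 2.07 ± 0.20 over β-cells (adjusted p = 2.86e-11) and 1.72 ± 0.22 over δ-cells (adjusted p = 1.15e-07). Without young male 4 the first was 0.71 with an adjusted p of 0.0558, and with sums of at least 10 cells it was 0.47 with an adjusted p of 0.786. In δ-cells APLP1 ran from 108 to 461 CPM with a median of 291, lower than in α-cells by a log2 fold change of −0.86 ± 0.17 (adjusted p = 0.000188).

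APLP1 was found in most cells of every type. It was present in 96.2% of α-cells, 93.5% of β-cells, 82.1% of δ-cells and 95.9% of PP-cells. Thinned to 10000 UMIs, these were 87.5%, 67.6%, 67.0% and 94.6%. The β-cell mean was 43.5% of the α-cell mean, whereas IRX2, GC and TSPAN12, α-cell genes, were read in β-cells at 8.50%, 9.83% and 8.08% of their α-cell means and GCG at 30.0%. LOXL4, another α-cell marker at a low level, was read at 4.37 CPM in β-cells and 12.5 CPM in α-cells.

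APLP2, the broadly expressed relative, ran the other way. It lay between 48.6 and 95.5 CPM in α-cells (median 67.4) and between 109 and 265 CPM in β-cells (median 161). As with SORL1, the β-cell value was the higher in 16 of 16 monkeys and the ranges did not overlap. This was a log2 fold change of 1.28 ± 0.19 (adjusted p = 3.49e-07). In δ-cells APLP2 had a median of 122 CPM, between 68.3 and 188, and was higher than in α-cells by 0.72 ± 0.22 (adjusted p = 0.0137) and in 10 of 11 monkeys.

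Among PP-cells, APLP2 was between 22.8 and 81.5 CPM in 5 sums and 202 CPM in young male 1. It was lower than in β-cells by a log2 fold change of −1.51 ± 0.31 (adjusted p = 0.000415), or −2.12 without young male 1. The fold change over δ-cells was −0.95 ± 0.32 with an adjusted p of 0.0494. That call was lost when any of 8 monkeys was left out (old females 1, 2 and 3, old male 4, young females 2, 3 and 4 and young male 4), with adjusted p between 0.0532 and 0.202.

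APP itself did not pass in any pair of types. In α-cells it ran from 32.1 to 76.5 CPM with a median of 48.5, and in β-cells from 33.2 to 99.7 CPM with a median of 62.6. The β-cell value was the higher in 15 of 16 monkeys, and the ranges overlapped over most of their length. The log2 fold change was 0.49 with an adjusted p of 0.113. It passed with DESeq2 and with sums of at least 10 cells, and the adjusted p ran from 0.0264 to 0.2 over 25 settings. δ-Cells had a median of 41.2 CPM (7.87 to 96.1) and PP-cells of 54.4 CPM (31.3 to 101).

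The β-secretase gene BACE1 did not pass in any pair of types. It lay between 60.4 and 201 CPM in α-cells (median 131) and between 43.1 and 185 CPM in β-cells (median 117). In δ-cells the range was 75.0 to 235 CPM and in PP-cells 55.5 to 373. The β-cell over α-cell fold change was −0.11 on the log2 scale, with 6 monkeys higher and 10 lower.

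BACE2, the relative of BACE1 that is known as a protease of pancreatic islets, was barely detected. The data held 246 BACE2 UMIs in 71 cells of 12 monkeys, and 192 of them were in 20 cells with 3 or more. In the main fits it passed the filter on low counts in no comparison of types and in no comparison of ages over both sexes. It entered type fits with sums of at least 10 cells, and with cells whose highest hormone was at least 4 times the next. In the latter it was called lower in β- than in α-cells, at 0 CPM in all 11 β-cell sums. The 16 α-cell sums there had a median of 0.294 CPM and a highest value of 6.86 CPM. A UMI was found in 1.27% of α-cells and 0.82% of β-cells, or 0.448% and 0.247% after thinning. The δ-cell gene HHEX was found after thinning in 0.784% of α-cells and 0.247% of β-cells, so the shares of cells with BACE2 were not above those of HHEX, while most BACE2 UMIs lay in the few cells with 3 or more. The cell with the most BACE2 held 54 UMIs, was typed α in old female 1, and had 471948 UMIs in all, of which 258 were of ductal markers. The next, a β-cell of old female 4 with 26 BACE2 UMIs, held 150 UMIs of stellate markers, and an α-cell of young female 2 with 14 BACE2 UMIs held 16258 UMIs of acinar markers. Others held almost none of these markers, such as the α-cells with 11 BACE2 UMIs in young female 4, 9 in old male 4 and 8 in young female 3. Of the 20 cells with 3 or more BACE2 UMIs, 10 held 10 or more UMIs of another cell type's list, as did 34.4% of all retained cells. The ductal list holds SPP1, at a mean of 1245 CPM in β-cells, and the immune list CD74, at 167 CPM in α-cells. The 34.4% is therefore not a background rate of other cell types. The part of doublets in these cells was not tested.

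None of the 3 γ-secretase members passed between α- and β-cells. NCSTN, the subunit that recognises substrates, had a median of 53.3 CPM in α-cells (48.1 to 79.3) and 49.3 CPM in β-cells (23.2 to 71.6), a log2 fold change of −0.27. PSEN2, a catalytic subunit, had a median of 43.4 CPM in α-cells (25.8 to 58.7) and 47.8 CPM in β-cells (19.8 to 117), a fold change of 0.11. APH1A, a scaffold subunit, had medians of 10.9 CPM (2.75 to 17) and 13.3 CPM (4.24 to 36.3), a fold change of 0.23. The values of both types overlapped for each of the 3 genes.

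PSEN2 was the exception in δ-cells. Its median there was 18.8 CPM, with a lowest value of 0 and a highest of 130. It was lower than in β-cells by a log2 fold change of −1.19 ± 0.41 (adjusted p = 0.0333) and in 9 of 11 monkeys. The call was lost without any of 7 monkeys (old female 2, old males 2 and 4, young females 1, 3 and 4 and young male 2), with adjusted p between 0.0516 and 0.0765. Against α-cells the value was −1.08 with an adjusted p of 0.0534.

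Counted together, 3 of the 8 members tested passed in β- against α-cells, where 25.0% of all genes passed. The count was also 3 of 8 for δ- against α-cells (23.3% of all genes), 2 of 8 for δ- against β-cells (19.8%), 1 of 8 for PP- against α-cells (6.59%), 3 of 8 for PP- against β-cells (17.2%) and 3 of 8 for PP- against δ-cells (10.4%). These comparisons share samples. With β- against α-cells the median fold change was 0.17 over the members and −0.11 over all genes. The median over all genes was −0.47 for δ- against α-cells, −0.35 for δ- against β-cells, −0.37 for PP- against α-cells and −0.26 for PP- against β-cells, and the values above for these pairs stand relative to it. The rarer types rest on fewer and shallower cells. Data simulated for β- against α-cells held planted 2-fold and 4-fold changes, without differences between monkeys. There edgeR recovered 31.96% of the 2-fold and 81.63% of the 4-fold changes and made 18 false calls. Members that did not pass can therefore still differ between types.

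**Figure D3:**
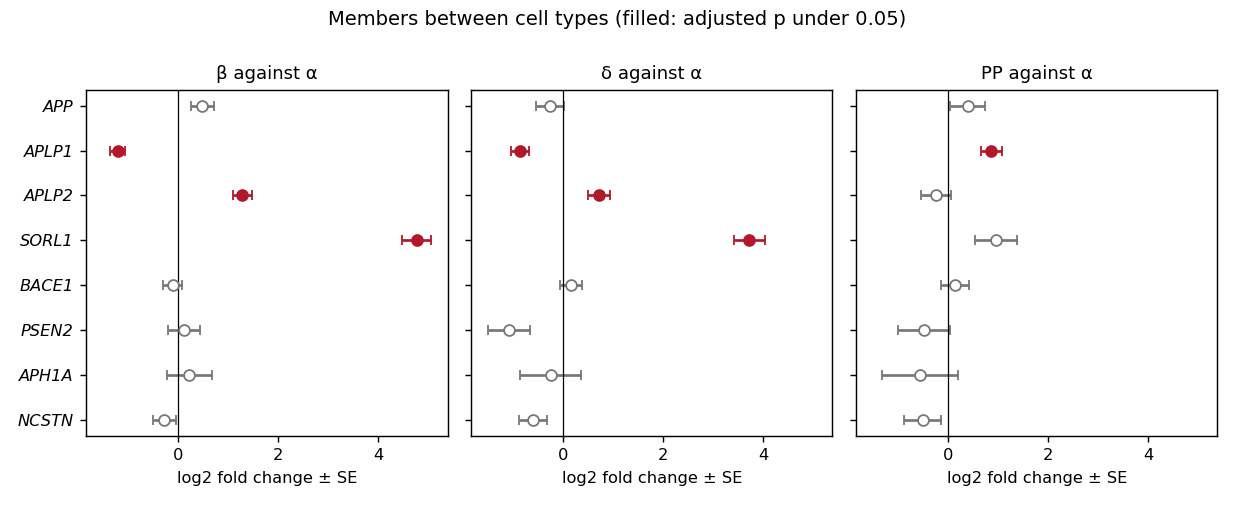
Log2 fold changes of 8 members (without BACE2) in β-, δ- and PP-cells against α-cells, with bars of 1 SE; filled points have an adjusted p under 0.05. SORL1 is at 4.76 in β- over α-cells, APLP2 at 1.28 and APLP1 at −1.20.

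The rest of the pathway was followed in 12 lists of 65 genes, of which 64 are in the data. Of the 52 genes tested that are not members, 7 were higher and 17 lower in β-cells than in α-cells, with a median log2 fold change of −0.16. Over all genes, 3228 of 12895 passed (25.0%), 1117 of them higher, with a median of −0.11. None of the 6 γ-secretase genes tested passed. None of the 3 α-secretases passed either, and ADAM10, the main one in neurons, averaged 18.7 CPM in α-cells and 19.1 CPM in β-cells.

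Among the sorting genes, SORL1 was the 1 of 5 VPS10 receptors that was higher in β-cells, and SORCS2 was lower by a log2 fold change of −3.26 ± 0.80 (adjusted p = 0.00186) at 1.44 against 0.597 CPM. Of 9 retromer and GGA adaptor genes, VPS35, the core of the retromer that SORL1 binds, passed. It averaged 150 ± 26.1 CPM in β-cells and 90.8 ± 14.7 CPM in α-cells, a log2 fold change of 0.71 ± 0.16 (adjusted p = 0.000549). The adjusted p of VPS35 was up to 0.237 over the other settings. Of 7 adaptors that bind the tail of APP, 3 were lower in β-cells, namely APBA2 (−2.99 ± 0.56), APBA1 (−2.22 ± 0.46) and APBB1 (−0.62 ± 0.20). Among the uptake receptors, LRP1 was lower as well (−1.42 ± 0.39).

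Of 6 other substrates of the β-secretases tested, 5 were lower in β-cells and 1 was higher. The cell adhesion gene CHL1 averaged 207 CPM in α-cells and 18.8 CPM in β-cells (−3.64 ± 0.28, adjusted p = 1.76e-15). SEZ6L averaged 114 and 12.8 CPM (−3.38 ± 0.26, adjusted p = 2.13e-15). The member that ran the other way was TMEM27, also called collectrin, a protein shed from β-cells, at 34.3 CPM in α-cells and 371 CPM in β-cells (3.48 ± 0.23, adjusted p = 4.41e-18).

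The list of BRI family and extracellular amyloid-binding proteins had 2 genes higher and 4 lower of 8. ITM2A was higher in β-cells (4.33 ± 0.40, adjusted p = 7.31e-13), and APOE (−1.96 ± 0.53) and CLU (−1.74 ± 0.20) were lower. APOE averaged 18.9 ± 33.7 CPM in α-cells with a median of 1.85, so that few monkeys carried its level. TTR, a carrier of thyroxine and retinol that binds amyloid-β, averaged 73836 CPM in α-cells and 35458 CPM in β-cells (−1.09 ± 0.07). ITM2B, whose product inhibits APP processing, averaged 1606 CPM in α-cells and 1465 CPM in β-cells, with an adjusted p of 0.495. IAPP, the precursor of islet amyloid, averaged 2700 ± 989 CPM in β-cells and 53.3 ± 37.5 CPM in α-cells (6.01 ± 0.33). The reticulons, which bind BACE1, had RTN3 (0.48 ± 0.17) and RTN4 (0.47 ± 0.12) higher and RTN2 (−2.53 ± 0.57) lower. The call of RTN3 was lost without any of 4 monkeys (old female 3, young females 2 and 4 and young male 3), at adjusted p of 0.0505 to 0.0592. ECE2 (−1.94 ± 0.35) was lower among 3 degrading enzymes tested.

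For each member the genes with the most similar pattern were found by Pearson's r over 49 means of monkey and type, among 7710 genes. Each mean was taken over the log2(CPM/10 + 1) values of the single cells, and not from the summed counts. These means share monkeys and libraries, and r is a description. SORL1 was most like HADH (r = 0.95), a mitochondrial enzyme of fatty acid oxidation, and GAD2 (0.91), a GABA-synthesising enzyme. APLP2 was most like LMAN2 (0.81) and CTAGE5 (0.81), and APLP1 most like a gene known only as ENSMFAG00000040747 (0.80) and PSMD3 (0.79). The other members had lower values, from 0.76 for NCSTN with ZRANB2 down to 0.64 for BACE2 with SLC25A25.

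Between young and old monkeys no member passed in α-, β- or δ-cells. In α-cells 0 of 8 members passed, as did 0% of all genes. In β-cells it was 0 of 8, against 0.0565% of all genes (6 genes), and in δ-cells 0 of 7, against 0%. At an unadjusted p under 0.05 the members numbered 1 in α-cells, 1 in β-cells and 0 in δ-cells, and DESeq2 called 0 of them. Over all genes, 885 were under that unadjusted threshold in α-cells, 585 in β-cells and 207 in δ-cells, and DESeq2 called 23, 39 and 3. Data simulated for these age groups held planted 2-fold and 4-fold changes. In them DESeq2 made 22, 12 and 19 false calls, and edgeR 2, 4 and 0. DESeq2 recovered 61, 35 and 2 of the 2-fold and 88, 83 and 31 of the 4-fold changes there. The observed data held fewer calls, so the simulated false calls give no rate for them. With edgeR, 50.51% of genes changed 2-fold and 81.82% of those changed 4-fold were recovered in α-cells, and 28.12% and 79.17% in β-cells.

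The member nearest to a call with age was APLP2 in β-cells. Young monkeys had a lowest value of 109 CPM, a median of 126 and a highest of 184, and old monkeys had 160, 198 and 265. All 8 old monkeys were above the young median and 4 were above the highest young value, and these 4 were the old males (214 to 265 CPM). The log2 fold change of old over young was 0.54 ± 0.15 with an adjusted p of 0.426. The adjusted p ran from 0.114 (DESeq2) to 1.00 over 27 other settings, and the fold change was 0.37 with cells thinned to 10000 UMIs.

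Depth and a marker moved with this difference. The median β-cell depth per monkey was 68440 to 112671 UMIs in old monkeys and 30098.5 to 85549 in young ones. The summed level of 4 ductal markers in β-cells was 360 to 5254 CPM in old and 23.4 to 1397 CPM in young monkeys. Nearly all of it was the secreted SPP1, and CFTR was at 0. The part of depth and of SPP1 in the APLP2 value was not tested.

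**Figure D4:**
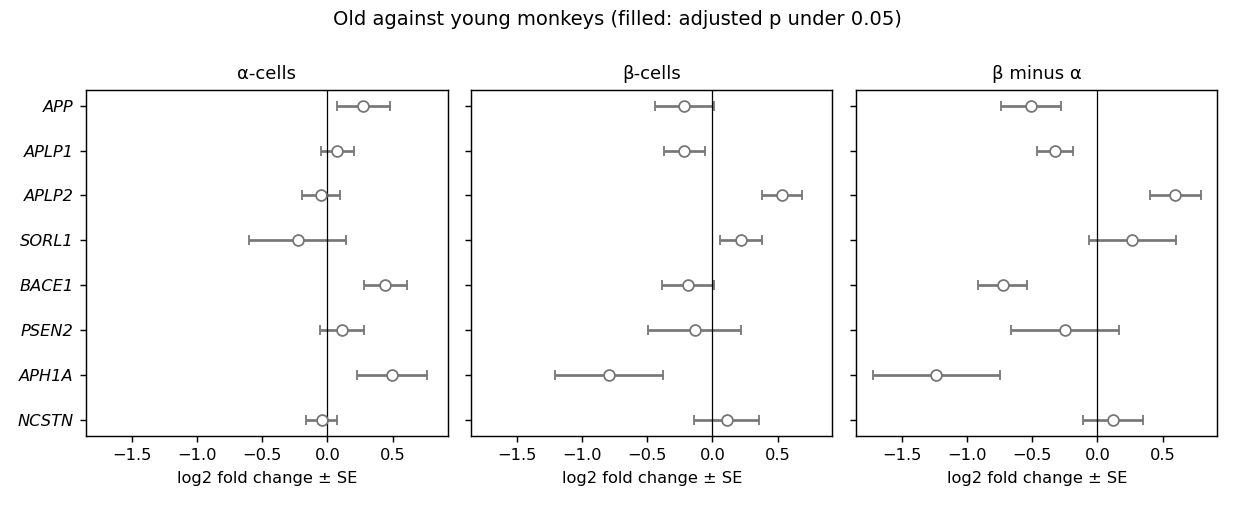
Log2 fold changes of 8 members (without BACE2) between old and young monkeys in α-cells and in β-cells, and the difference of both (β minus α), with bars of 1 SE; no adjusted p is under 0.05, so all points are open. APLP2 in β-cells is at 0.54 and BACE1 in α-cells at 0.44.

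BACE1 in α-cells was the other member with an unadjusted p under the threshold. Young monkeys ran from 60.4 to 146 CPM with a median of 106, and old monkeys from 100 to 201 CPM with a median of 158. Of the 8 old monkeys, 5 lay above the highest young value. Old over young, the log2 fold change was 0.44 ± 0.16 with an adjusted p of 0.695. In β-cells it was −0.19 ± 0.20.

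SORL1 did not pass with age in any type. The log2 fold change was 0.22 ± 0.16 in β-cells (adjusted p = 0.992), −0.23 ± 0.37 in α-cells (adjusted p = 0.931) and 0.16 ± 0.47 in δ-cells. APP was at 0.27 ± 0.21 in α-cells and −0.22 ± 0.23 in β-cells, and APLP1 at 0.08 ± 0.13 and −0.21 ± 0.15. APH1A was at 0.50 ± 0.27 and −0.79 ± 0.41. In PP-cells, with 2 young and 4 old monkeys, only values are given, and the 2 young males were above the 4 old monkeys in APLP1.

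The age effect was also compared between types. The β-cell minus α-cell difference was −0.72 ± 0.19 for BACE1 (adjusted p = 0.545) and 0.60 ± 0.20 for APLP2 (adjusted p = 0.685). It was −1.24 ± 0.49 for APH1A, −0.51 ± 0.23 for APP and −0.32 ± 0.14 for APLP1, with edgeR adjusted p of 0.734, 0.791 and 0.776. None of the 8 members passed, nor did any of 13318 genes (0%), though 5 members and 804 genes were under an unadjusted p of 0.05. DESeq2 called 10 genes and no member, with an adjusted p of 0.126 for BACE1. Between the sexes, the age effect of APLP2 in β-cells was 0.72 ± 0.21 in males and 0.36 ± 0.22 in females, a difference of 0.35 ± 0.30 (adjusted p = 1.00). No member passed for that difference in α-cells, where 0.00707% of genes did, or in β-cells, where 0% did (492 at an unadjusted p under 0.05, and 2 called by DESeq2). At an unadjusted p under 0.05 there was 1 member in α-cells (BACE2) and 0 in β-cells, and DESeq2 called 0 members in either.

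None of the pathway genes outside the members passed with age. The lists had 51 such genes tested in α-cells, 43 in β-cells and 31 in δ-cells. Their median log2 fold change of old over young was 0.01 in α-cells and 0.07 in β-cells, beside 0.00 and 0.01 over all genes.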

How the data were processed

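Per the submitters' processing notes and the study's methods, reads were demultiplexed with CASAVA 1.8 and aligned with TopHat2 2.0.12 to the Macaca_fascicularis_5.0 assembly, and the authors counted UMIs per gene and cell with htseq-count. The deposited values are these raw counts per cell in 64 libraries, 4 for each of 16 monkeys, with 95 spike-in RNAs that were left out. Cells needed more than 800 genes and more than 10000 UMIs, and this UMI filter alone counted the spike-ins. It left 45 retained cells with fewer than 10000 UMIs of macaque genes. The authors' filter on mapping rate was not applied here. Cells were typed by their highest hormone, and the 4 hormones got no test. Counts were summed per monkey and type with at least 5 cells and tested with edgeR 4.0.16 (quasi-likelihood, TMM, filterByExpr, Benjamini-Hochberg, threshold 0.05). Type comparisons had monkey as a block, since the types come from the same animal, and α- and β-cell deviations of a monkey correlated at 0.258 to 0.548 over 16 monkeys. Age comparisons had sex as a term. Monkeys are the replicates. Alternatives were DESeq2 1.42.0, limma 3.58.1 on log2(mean CPM per cell + 1), no filter on low counts, and at least 10 cells. Others were thinning to 10000 UMIs, a hormone ratio of 4, leaving out possible doublets (above the 95th percentile of UMIs) and hormones out of the totals. The rest were other terms, the study's own list of β-cells for age, and leaving out each monkey. Intervals of shares are exact (Clopper-Pearson) and cover counting error only. The fits were tested on simulated data. No doublet caller was run. The members and lists were chosen with earlier results of these data known, so calls between types are not independent evidence. The genes named were all members, a few chosen list genes, and up to 3 called genes per list with the largest change between β- and α-cells, with the 2 genes most like each member. Sequences were not used here, and some genes that the rule names are not reported here.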

Additional observations from a re-analysis of the deposited data

Results flagged for a closer look

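The highest monkey stood apart from the rest of its group in 10 of 63 groups of 4 to 8 monkeys. Chance flags about 1 in 20 groups of normally spread values. That rate does not hold for BACE2, which was at or near 0 in most monkeys. In δ- and PP-cells all other monkeys of a flagged BACE2 group were at 0, so that 1 or 2 UMIs fixed the flag. SORL1 in β-cells of old monkeys was 745 CPM in old male 4, from 1230 UMIs in 22 cells, with the next monkey at 470 CPM. In PP-cells of old monkeys, BACE1 was 373 CPM in old male 4 (6 cells, next 101 CPM), PSEN2 was 78.1 CPM in old female 2 (next 9.59 CPM) and APH1A was 18.7 CPM in old female 2 (next 2.85 CPM). APH1A in δ-cells of old monkeys was 32.4 CPM in old male 2, from 9 UMIs in 5 cells. BACE2 was 4.47 CPM in α-cells of old female 1, most of it from the cell with 54 UMIs, and 1.89 CPM in β-cells of old female 4. It was 1.81 CPM in δ-cells of young female 1 and 1.79 CPM in δ-cells of old female 2, from 1 UMI each, and 1.33 CPM in PP-cells of old female 2, from 2 UMIs. Of 25 differences in age effect between types or sexes tested for the members, 0 passed the adjusted threshold.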

How the results depend on the processing

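The 3 calls of SORL1, APLP1 and APLP2 between β- and α-cells kept their direction and passed in each of 25 alternatives. The number of members called moved by more than 1.5 times for δ- against β-cells to 4 with limma, for PP- against α-cells to 2 with no replicate block, and for PP- against δ-cells to 0 with at least 10 cells, where PP-cells rest on old female 2 alone, assumed to vary like the other sums; APLP1 in PP- against δ-cells was then 1.44 (adjusted p = 0.0608). Smaller moves were to 4 for β- against α-cells (DESeq2, at least 10 cells, hormone ratio of 4), to 4 (limma, at least 10 cells, hormones out of the totals) or 2 (without possible doublets) for δ- against α-cells, and to 2 for PP- against β-cells (at least 10 cells) and for PP- against δ-cells (no filter, without possible doublets, no replicate block). With the hormone ratio of 4, the added call in β- against α-cells was BACE2, lower in β-cells. Leaving out 1 monkey gave 1 to 3 calls for δ- against β-cells (1 without old female 2, young female 1 or young female 4), 0 to 1 for PP- against α-cells (0 without young male 4), 3 to 4 for δ- against α-cells and 2 to 3 for PP- against δ-cells. With a hormone ratio of 4, signs turned for PSEN2 (−0.66) and APH1A (−0.072) between β- and α-cells and, with age in β-cells, for APP (0.67) and SORL1 (−0.049), none of them called. With age in α-cells, SORL1 was 0.070 without possible doublets and −0.41 to 0.0072 without 1 monkey, and APLP2 was −0.13 to 0.015; the sign turned without young female 1 for SORL1, and without old female 4 (0.013), old male 4 (0.011) or young male 1 (0.015) for APLP2. The cause was not tested. Calls lost in at least 1 alternative included, with the highest adjusted p, APLP2 in δ- against α-cells (0.16) and, in β- against α-cells, APOE (0.425), SORCS2 (0.297) and RTN4 (0.174). Without 1 monkey, in 3 cases each, calls were gained for APP in δ- against β-cells and PSEN2 in δ- against α-cells. Scaling mattered for the rarer types: with DESeq2 the median of all genes was −0.20 for δ- against α-cells and −0.02 for δ- against β-cells, and 1108 of 2974 and 1416 of 2873 called genes were higher, against 565 of 3000 and 681 of 2557. For PP- against α- and β-cells 577 of 1347 and 1578 of 2910 were higher, against 230 of 850 and 857 of 2223. Same-numbered monkeys of the 2 ages share only a number (correlation of deviations −0.04 to 0.18 in α-cells, −0.14 to 0.13 in β-cells), and the replicate block gave 0 members called with age in both types. Without the monkey block, β- against α-cells gave 2814 calls and 3 members. No δ-cell age test was run with at least 10 cells or a hormone ratio of 4, and simulated 2-fold age changes in δ-cells were recovered in 0% of genes.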
